A study of Mus musculus with 9 samples.

Results

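Transcripts of 9 genes that mark the sinusoidal endothelium of the liver were followed in db/db mouse liver: Stab1, Stab2, Lyve1, Clec4g, Fcgr2b, Kdr, Oit3, Dnase1l3 and Pecam1. They were chosen by gene symbol from a table of 28517 genes, all 9 were found in it, and all 9 passed the filter on low counts that left 18142 genes for testing. The mice of every group were db/db, a strain that lacks a working leptin receptor and becomes obese and diabetic. They had been given FGF19ΔKLB, FGF19WT or vehicle (PBS) for 12 weeks, and each group held 3 libraries of total RNA from liver tissue. FGF19 is a gut hormone that acts on hepatocytes through FGFR4 and its co-receptor β-klotho. The labels do not give the sequence change of FGF19ΔKLB, the strain background, sex or age of the mice, or whether the libraries of a group came from separate animals, so p-values measure the spread between these libraries.

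Liver sinusoidal endothelial cells line the capillaries of the lobule. They have open pores and no continuous basement membrane, and they clear macromolecules such as hyaluronan, collagen fragments and small immune complexes from blood through endocytic receptors. When they lose this specialised state they are said to capillarise, with loss of scavenger receptors and gain of genes of continuous endothelium. In bulk liver RNA their transcripts are a small part of the RNA, and fewer cells of a type cannot be told apart from less RNA per cell.

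The series as a whole sets the scale for what follows. Totals were 65.1 to 73.3 M counts per library. Genes with counts at multiples of 4 were 2.16 to 2.36 times as frequent as genes at neighbouring counts. If 1 read pair gave 4 counts, totals stand for about 16.3 to 18.3 M read pairs. That factor was inferred from this pattern only. Albumin alone took 8.60% to 21.1% of the counts. FGF19WT libraries 2 and 3 stood apart from the other 7 libraries, including FGF19WT library 1. In a principal component analysis they alone had positive scores on the leading axis, which carried 48.9% of the variance, and 37.4% of all tested genes were either below or above the other 7 in both. Fold changes of the 9 genes that involve FGF19WT are therefore given with those libraries and without them. The cause of their separation was not tested.

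All 9 genes lie on the minus strand of GRCm38, on 7 chromosomes: 1, 5, 7, 8, 10, 11 and 14. Stab1 (chromosome 14, 31139013 to 31168641) and Stab2 (chromosome 10, 86841198 to 87008025) are large genes whose longest coding transcripts have 69 exons each in GENCODE. Clec4g (chromosome 8, 3707064 to 3718653 in the deposited table, where GENCODE ends it at 3720651) has 5 exons, and Lyve1 (chromosome 7, 110850607 to 110863239) has 6. Fcgr2b lies on chromosome 1 from 170958617 to 170976547, Kdr on chromosome 5 from 75932827 to 75978458, Oit3 on chromosome 10 from 59422958 to 59441778, Dnase1l3 on chromosome 14 from 7964533 to 7994573, and Pecam1 on chromosome 11 from 106654217 to 106750628. Exonic bases of 4 of them are shared with a gene on the opposite strand: Stab1 with 112 bases of Nt5dc2, Stab2 with 141 bases of Gm16268, Clec4g with 146 bases of Gm16553 and Fcgr2b with 155 bases of Gm38204. Whether the authors counted by strand is not given in the sources used here, so reads from those stretches could have gone to either gene.

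RefSeq promoters, 250 bases before to 50 bases after the start on GRCm38.p6, were at hand for 5 of the 9 genes. Those of Stab2 (chr10:87007893-87008192), Clec4g (chr8:3720602-3720901) and Kdr (chr5:75978406-75978705) are printed because these genes were lower in both FGF19WT libraries 2 and 3 than in the other 7 libraries. Stab1 (chr14:31168592-31168891) is printed beside them as the paralogue of Stab2 that was not, a choice made after the values were seen. Each is written 5′ to 3′ on the minus strand, and capitals mark matches on either strand to AGATAA (bound by GATA factors), AGGAAG (ETS factors) or ACAATG (SOX factors), which are the transcription factor families that shape endothelium.
Stab2: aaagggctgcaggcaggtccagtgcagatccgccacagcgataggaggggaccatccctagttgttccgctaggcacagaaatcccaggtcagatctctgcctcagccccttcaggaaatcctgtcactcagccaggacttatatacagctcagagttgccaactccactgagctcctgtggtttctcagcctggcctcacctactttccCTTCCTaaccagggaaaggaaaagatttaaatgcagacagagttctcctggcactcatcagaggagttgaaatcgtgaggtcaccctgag
Clec4g: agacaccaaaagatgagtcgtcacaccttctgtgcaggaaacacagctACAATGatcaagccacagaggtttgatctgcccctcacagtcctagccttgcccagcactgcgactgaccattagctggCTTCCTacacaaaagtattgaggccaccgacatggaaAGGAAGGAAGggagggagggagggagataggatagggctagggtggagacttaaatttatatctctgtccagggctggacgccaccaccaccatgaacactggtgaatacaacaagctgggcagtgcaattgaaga
Kdr: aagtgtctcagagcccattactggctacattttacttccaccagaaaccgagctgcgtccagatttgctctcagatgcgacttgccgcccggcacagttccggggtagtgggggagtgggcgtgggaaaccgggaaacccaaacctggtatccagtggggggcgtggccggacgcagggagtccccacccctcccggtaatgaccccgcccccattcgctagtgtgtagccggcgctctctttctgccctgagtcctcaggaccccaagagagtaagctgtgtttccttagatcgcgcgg
Stab1: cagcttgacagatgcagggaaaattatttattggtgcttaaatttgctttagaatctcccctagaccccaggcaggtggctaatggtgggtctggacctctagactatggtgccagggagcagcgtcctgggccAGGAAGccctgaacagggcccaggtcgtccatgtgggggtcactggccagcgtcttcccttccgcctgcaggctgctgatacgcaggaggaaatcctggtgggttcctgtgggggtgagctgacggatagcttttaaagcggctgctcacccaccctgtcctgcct

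Stab2 held 1 AGGAAG match and Stab1 also 1. Clec4g held 3, of which a pair share bases, and 1 ACAATG match, and Kdr held 0 of any of the 3 motifs. The Fcgr2b promoter also held 0. AGATAA occurred in 0 of the 5 promoters and in 11.2% of the 32851 promoters of that table, AGGAAG in 3 of 5 and in 35.4% of all, and ACAATG in 1 of 5 and in 12.6% of all. Matches were thus present and absent both among the genes that were low in those libraries and among those that were not, and a match describes letters in a window and not a bound site.

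Levels below are CPM, the count scaled to the size of its library with TMM factors, and each gene's libraries are given in the order 1, 2, 3 of its group. The scavenger receptors come first. Stab2 encodes stabilin-2, the main endocytic receptor for hyaluronan on these cells. Its level was 32.2, 22.8 and 24.8 CPM with FGF19ΔKLB, 36.6, 6.39 and 4.64 CPM with FGF19WT, and 33.9, 49.7 and 39.7 CPM with vehicle. All 3 FGF19ΔKLB libraries lay below the lowest vehicle library, and FGF19WT libraries 2 and 3 lay at 15.5% and 11.3% of the vehicle mean while library 1 was within the vehicle range. For FGF19WT against vehicle the log2 fold change was -1.37 (SE 0.69, edgeR adjusted p = 0.314). For FGF19ΔKLB against vehicle it was -0.63 (SE 0.68, adjusted p = 0.879).

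Stab1 encodes stabilin-1, a related scavenger receptor that macrophages make as well. It had 25.1, 26.5 and 18.7 CPM with FGF19ΔKLB, 32.6, 15.8 and 36.0 CPM with FGF19WT, and 26.4, 33.4 and 28.9 CPM with vehicle. FGF19WT library 2 was the lowest of the 9 libraries and FGF19WT library 3 the highest, so the pair that stood apart in other genes did not move together in this one. The log2 fold change was -0.07 for FGF19WT against vehicle (SE 0.29, edgeR adjusted p = 0.907) and -0.34 for FGF19ΔKLB against vehicle (SE 0.29, adjusted p = 0.832). The neighbour whose last exon overlaps that of Stab1, Nt5dc2, had 4.58, 4.38 and 2.28 CPM with FGF19ΔKLB, 4.92, 29.0 and 27.1 CPM with FGF19WT, and 3.42, 7.08 and 4.35 CPM with vehicle. It was high in the same 2 FGF19WT libraries, and its part in the Stab1 level there was not tested.

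Lyve1 encodes another hyaluronan receptor, found on sinusoidal and lymphatic endothelium and on some macrophages. It had 6.88, 12.0 and 3.06 CPM with FGF19ΔKLB, 7.50, 1.46 and 0.276 CPM with FGF19WT, and 13.8, 9.87 and 10.7 CPM with vehicle. It was the only one of the 9 whose FGF19WT libraries all lay below all vehicle libraries. In FGF19WT library 3 it rested on 19 counts, about 4.75 read pairs if 4 counts stand for 1. Its log2 fold change for FGF19WT against vehicle was -1.90 with a 95% interval of -4.10 to 0.30 (edgeR adjusted p = 0.323), the most negative of the 9. For FGF19ΔKLB against vehicle it was -0.64 (adjusted p = 0.919), with FGF19ΔKLB library 2 inside the vehicle range.

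Clec4g encodes LSECtin, a C-type lectin of sinusoidal endothelium that binds glycans of viruses and of T cells. It had 18.1, 21.4 and 11.5 CPM with FGF19ΔKLB, 28.7, 3.01 and 1.12 CPM with FGF19WT, and 28.6, 23.3 and 20.2 CPM with vehicle. FGF19WT library 1 was the highest of all 9 libraries and FGF19WT library 3 the lowest, at 4.65% of the vehicle mean. The log2 fold change was -1.13 for FGF19WT against vehicle (SE 0.95, edgeR adjusted p = 0.530) and -0.50 for FGF19ΔKLB against vehicle (SE 0.94, adjusted p = 0.940).

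Fcgr2b encodes the inhibitory Fc gamma receptor, which takes up small immune complexes on sinusoidal endothelium and is also made by B cells and macrophages. It had 15.0, 11.8 and 10.6 CPM with FGF19ΔKLB, 27.4, 19.7 and 13.7 CPM with FGF19WT, and 26.9, 20.5 and 17.5 CPM with vehicle. The FGF19ΔKLB libraries all lay below all vehicle libraries, while FGF19WT library 3 was the only FGF19WT library below the vehicle range. This was the gene with the smallest unadjusted p among the 9 in both comparisons of FGF19ΔKLB. Its log2 fold change was -0.80 for FGF19ΔKLB against vehicle, with a 95% interval of -1.43 to -0.17 (edgeR unadjusted p = 0.0191, adjusted p = 0.487). It was -0.70 for FGF19ΔKLB against FGF19WT, with an interval of -1.33 to -0.07 (unadjusted p = 0.0332, adjusted p = 0.356). For FGF19WT against vehicle it was -0.10 (adjusted p = 0.869). Summed B and plasma cell markers lay at 31.9 to 71.5 CPM with FGF19ΔKLB, 4.03 to 31.6 CPM with FGF19WT and 104 to 247 CPM with vehicle. Summed Kupffer cell markers lay at 364 to 427 CPM with FGF19ΔKLB, 67.5 to 439 CPM with FGF19WT and 429 to 541 CPM with vehicle. The part of these cells in the Fcgr2b level was not tested.

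Kdr encodes VEGF receptor 2, the main signalling receptor for VEGF-A on endothelium. It had 10.9, 10.9 and 5.06 CPM with FGF19ΔKLB, 20.0, 2.99 and 1.07 CPM with FGF19WT, and 16.4, 13.6 and 11.0 CPM with vehicle. The FGF19ΔKLB libraries lay below vehicle, but the highest of them, at 10.95 CPM, nearly touched the lowest vehicle library, at 11.04 CPM. The log2 fold change was -0.77 for FGF19WT against vehicle (SE 0.87, edgeR adjusted p = 0.646) and -0.61 for FGF19ΔKLB against vehicle (SE 0.87, adjusted p = 0.918).

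Oit3 and Dnase1l3 encode secreted proteins. Oit3, a zona pellucida domain protein, had 6.98, 8.45 and 3.52 CPM with FGF19ΔKLB, 13.1, 1.89 and 0.639 CPM with FGF19WT, and 9.64, 8.84 and 7.32 CPM with vehicle. Dnase1l3, an enzyme that digests DNA in microparticles and chromatin in blood, had 22.6, 24.1 and 13.7 CPM with FGF19ΔKLB, 37.8, 5.01 and 1.12 CPM with FGF19WT, and 28.2, 26.1 and 23.5 CPM with vehicle. In both genes FGF19WT library 1 was above every other library, at 152% of the vehicle mean for Oit3 and 146% for Dnase1l3, while library 3 was the lowest, at 7.42% and 4.31%. The FGF19WT group thus spanned the other groups on both sides, and the log2 fold changes against vehicle were -0.72 for Oit3 (SE 0.89, edgeR adjusted p = 0.673) and -0.82 for Dnase1l3 (SE 0.96, adjusted p = 0.654). For FGF19ΔKLB against vehicle they were -0.44 (adjusted p = 0.943) and -0.36 (adjusted p = 0.960).

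Pecam1 encodes CD31, an adhesion molecule of all endothelium that platelets and leukocytes also carry. It had 6.45, 9.93 and 5.55 CPM with FGF19ΔKLB, 13.7, 4.40 and 1.81 CPM with FGF19WT, and 11.2, 10.2 and 11.2 CPM with vehicle. Its 3 vehicle libraries were the closest together of any of the 9 genes, with a mean of 10.8 ± 0.58 CPM (SD, n = 3). The FGF19ΔKLB libraries lay below them, and the FGF19WT libraries lay on both sides. The log2 fold change was -0.70 for FGF19WT against vehicle (SE 0.61, edgeR adjusted p = 0.542) and -0.57 for FGF19ΔKLB against vehicle (SE 0.61, adjusted p = 0.877).

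**Figure D1:**
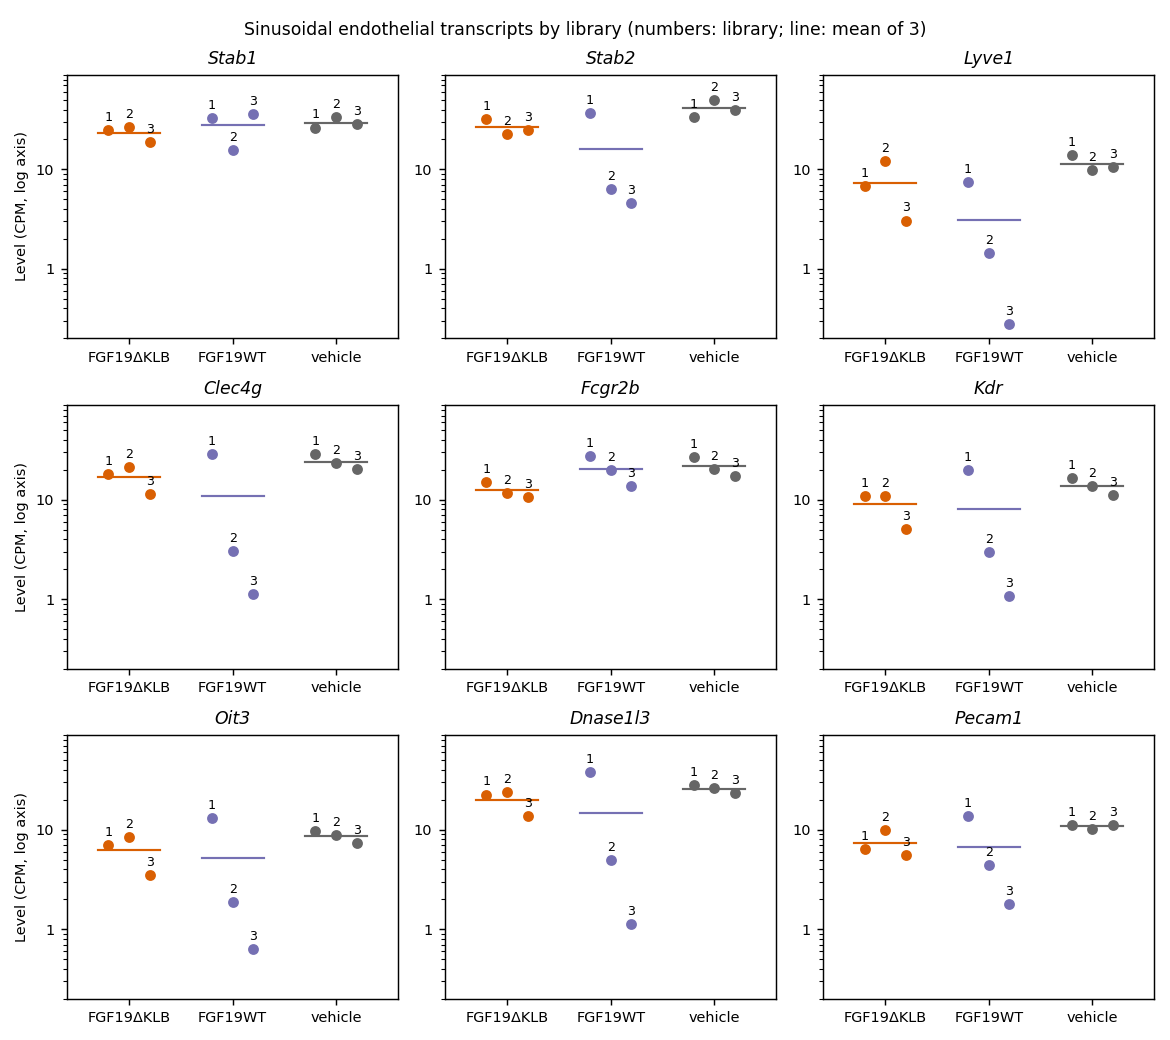
Level of each transcript in CPM (log axis) in the 3 libraries of FGF19ΔKLB, FGF19WT and vehicle, with the library number beside each point and a line at the mean. In 7 of the 9 panels FGF19WT libraries 2 and 3 are the lowest points, for example 3.01 and 1.12 CPM for Clec4g, whereas Stab1 and Fcgr2b do not show this.

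Across the set, 7 of the 9 genes (all but Stab1 and Fcgr2b) were lower in both FGF19WT libraries 2 and 3 than in the other 7 libraries, a pattern shown by 19% of all tested genes. Relative to the vehicle mean on the log2 scale, the median of the 9 was -2.17 in FGF19WT library 2 and -3.62 in library 3, against 0.34 in library 1. In the FGF19ΔKLB libraries it was -0.34, -0.15 and -1.01, so FGF19ΔKLB library 3 was the lowest of that group.

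FGF19WT against vehicle asks how these transcripts differed between livers given FGF19WT and livers given vehicle. All 9 log2 fold changes were negative, with a median of -0.77, against -0.005 for all tested genes, of which 50.3% were negative. In edgeR's quasi-likelihood test 0 of the 9 were called at an adjusted p under 0.05, where 0.11% of all genes were called, and 0 had an unadjusted p under 0.05, where 18.8% of all genes did. The DESeq2 Wald test called 0 of the 9 as well, where it called 9.61% of all genes. Only Lyve1 had FGF19WT libraries entirely below vehicle, 1 of 9 against 11.6% of all genes.

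The answer turned on single libraries of the FGF19WT group. Without FGF19WT library 1, which leaves the 2 libraries that stood apart, edgeR called 7 of the 9 lower, where 14.3% of all genes in that fit were called lower. The log2 fold changes were then -3.72 for Lyve1 (adjusted p = 0.00964), -3.54 for Clec4g (0.0012), -3.08 for Dnase1l3 (0.00584), -2.90 for Stab2 (0.000212), -2.77 for Oit3 (0.00656), -2.75 for Kdr (0.00574) and -1.80 for Pecam1 (0.012). Stab1 at -0.20 (adjusted p = 0.681) and Fcgr2b at -0.38 (0.292) were not called. The 7 called were the genes already seen below the other 7 libraries in libraries 2 and 3. In this fit FGF19WT rests on just those libraries, which were known to stand apart. Its calls, here and in the lists below, are therefore no separate support for a change. Without both libraries 2 and 3, which leaves library 1 alone and assumes that it varies like the other groups, 7 of the 9 were positive, from 0.14 for Stab1 to 0.61 for Oit3, and 0 were called. Lyve1 at -0.61 and Stab2 at -0.17 stayed negative.

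FGF19ΔKLB against vehicle asks the same of the variant. All 9 log2 fold changes were again negative, from -0.80 for Fcgr2b to -0.34 for Stab1, with a median of -0.57, against 0.002 for all tested genes. In edgeR 0 of the 9 were called, where 0.011% of all genes were, and 1 of 9, Fcgr2b, had an unadjusted p under 0.05, where 8.35% of all genes did. Libraries did not overlap, with FGF19ΔKLB lower, in Stab2, Fcgr2b, Kdr and Pecam1, 4 of 9 against 12.2% of all genes. This comparison and the one of FGF19WT share the vehicle libraries, so their common sign is not independent. Within the 6 libraries of FGF19ΔKLB and vehicle alone, whose error does not take in the spread of FGF19WT, edgeR called 0 of the 9, where 1.68% of genes were called. In that fit Fcgr2b had a log2 fold change of -0.80 (adjusted p = 0.105), Stab2 -0.63 (0.151) and Pecam1 -0.57 (0.262). Albumin took 16.3% to 21.1% of counts in FGF19ΔKLB libraries and 8.60% to 13.5% in vehicle libraries, and its part in the lower CPM of other transcripts was not tested.

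FGF19ΔKLB against FGF19WT sets the variant against the form labelled WT. Of the 9, 7 were positive and Stab1 and Fcgr2b were negative, with a median log2 fold change of 0.28, against 0.01 for all genes. The largest was Lyve1 at 1.25, with a 95% interval of -0.91 to 3.42 (edgeR adjusted p = 0.610). In edgeR 0 of the 9 were called, where 0% of all genes were, and 1 of 9 had an unadjusted p under 0.05, where 12.5% of all genes did. FGF19ΔKLB libraries lay entirely above those of FGF19WT in 0 of the 9 genes, where 7.15% of all genes did, and entirely below them in 0 of the 9, where 6.39% did. Without FGF19WT library 1, 6 of the 9 were called higher with FGF19ΔKLB, where 10.9% of all genes were, with log2 fold changes from 2.15 for Kdr to 3.07 for Lyve1. Without FGF19WT libraries 2 and 3 all 9 were negative and 0 were called.

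**Figure D2:**
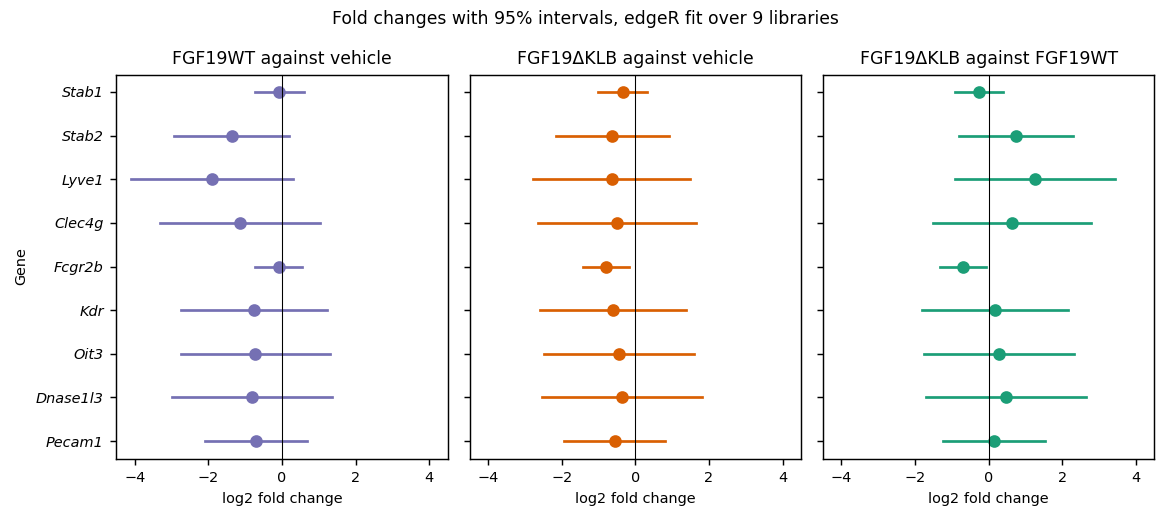
Log2 fold changes with 95% intervals from the edgeR fit over all 9 libraries, in 1 panel per comparison. All points of both comparisons with vehicle lie left of 0, and only the Fcgr2b intervals of the panels with FGF19ΔKLB, -1.43 to -0.17 against vehicle and -1.33 to -0.07 against FGF19WT, leave out 0.

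Levels between the genes were compared per length, as the FPKM deposited by the authors. The order of group means was led by Clec4g in every group, at 5.90 ± 2.08 FPKM with FGF19ΔKLB, 4.03 ± 5.53 FPKM with FGF19WT and 9.20 ± 1.51 FPKM with vehicle (SD, n = 3 each). In vehicle livers it was followed by Dnase1l3 at 4.75, Stab2 at 4.43, Lyve1 at 3.71, Fcgr2b at 3.52, Oit3 at 2.91, Stab1 at 2.71, Pecam1 at 1.64 and Kdr at 1.43 FPKM. Ranges of neighbours in that order overlapped except between Clec4g and Dnase1l3 and between Stab1 and Pecam1. With FGF19ΔKLB the first 4 places were the same and Fcgr2b, at 1.82 FPKM, came after Oit3 and Stab1. With FGF19WT Fcgr2b came second at 3.34 FPKM, but the SD over libraries exceeded the mean for Clec4g, Stab2, Lyve1, Kdr, Oit3 and Dnase1l3.

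The make-up of the set differed between libraries more than its total alone shows. Summed FPKM of the 9 was 23.7, 27.1 and 13.7 with FGF19ΔKLB, 38.1, 10.5 and 7.38 with FGF19WT, and 37.6, 33.3 and 32.0 with vehicle. Stab1 and Fcgr2b together made up 18.2%, 15.0% and 20.7% of the sum with FGF19ΔKLB, 18.4%, 49.0% and 75.3% with FGF19WT, and 18.1%, 18.5% and 18.0% with vehicle. FGF19ΔKLB library 3 thus had a low sum with a share near that of vehicle, whereas FGF19WT libraries 2 and 3 had a low sum with a higher share. The FPKM ratio of Stab1 to Stab2 was 0.663, 0.988 and 0.639 with FGF19ΔKLB, 0.756, 2.10 and 6.61 with FGF19WT, and 0.662, 0.571 and 0.619 with vehicle. The ratio of Fcgr2b to Clec4g was 0.353, 0.232 and 0.390 with FGF19ΔKLB, 0.405, 2.78 and 5.27 with FGF19WT, and 0.401, 0.375 and 0.367 with vehicle. Both ratios were above those of the other 7 libraries in FGF19WT libraries 2 and 3.

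**Figure D3:**
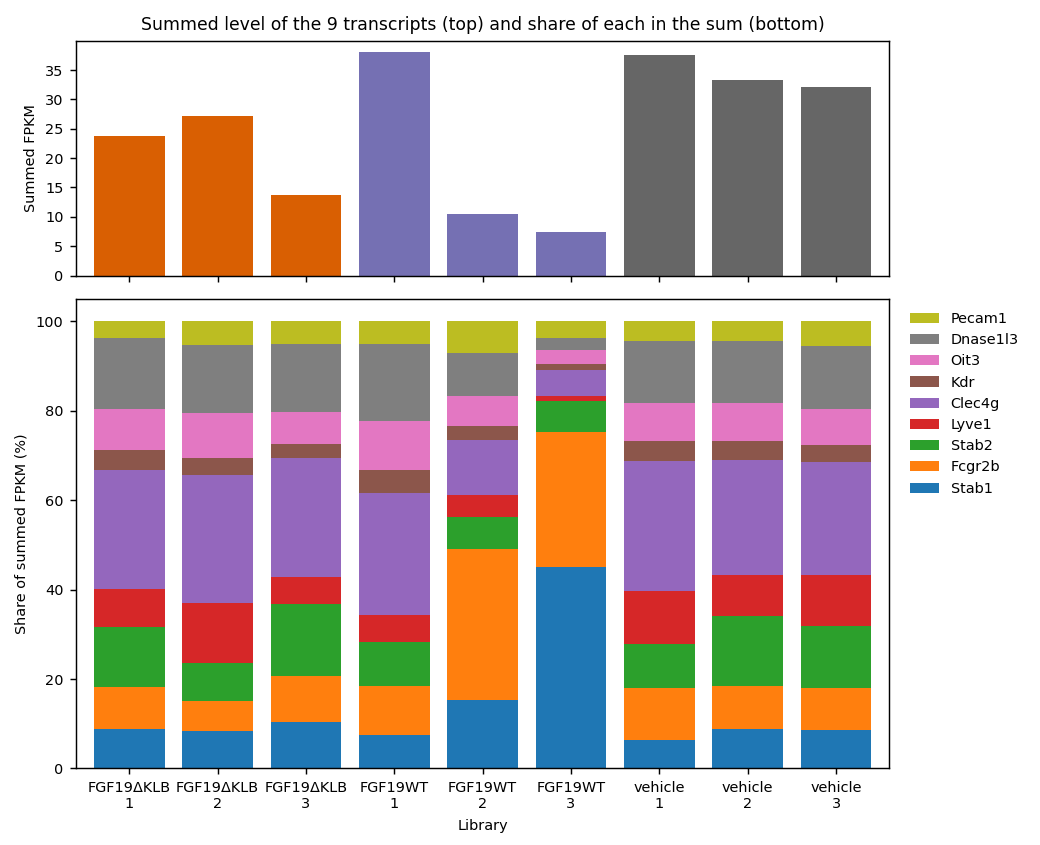
Summed FPKM of the 9 transcripts in each library (top) and the share of each transcript in that sum in percent (bottom), with Stab1 and Fcgr2b at the base of each bar. Stab1 and Fcgr2b reach 49.0% and 75.3% in FGF19WT libraries 2 and 3 and stay between 15.0% and 20.7% in the other 7.

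The genes whose profile over the 9 libraries came nearest to the mean profile of the set were sought among 13050 other genes with a mean of at least 1 CPM. Likeness was the root mean square difference of centred log2 CPM, which had a median of 1.10 over all those genes. The nearest was Aqp1, a water channel of sinusoidal and other endothelium, at 0.0993, with 27.1, 34.7 and 18.6 CPM with FGF19ΔKLB, 53.8, 10.6 and 4.62 CPM with FGF19WT, and 41.1, 44.3 and 37.2 CPM with vehicle. Zfp366 (0.104), Pear1 (0.127), Olfm1 (0.155), Itpkb (0.168), Erg (0.169), Atp2b4 (0.181) and Tie1 (0.184) followed, of which Erg is an endothelial transcription factor and Tie1 an endothelial receptor tyrosine kinase. Among the 9 themselves, Kdr at 0.256 and Oit3 at 0.280 were nearest to their mean profile and Stab1 at 1.04 and Fcgr2b at 0.944 farthest from it. The likeness rests on the same 9 libraries, and mostly on FGF19WT libraries 2 and 3, where the mean profile lay lowest.

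Other genes of the same cells were read from a list of 12. In edgeR over 9 libraries 0 of the 12 were called in any comparison, with 11 of 12 negative for FGF19WT against vehicle and 11 of 12 for FGF19ΔKLB against vehicle. Below the other 7 libraries in both FGF19WT libraries 2 and 3 were 6 of the 12, where 19% of all genes were. These were Bmp2, Clec1b, Ehd3, Flt4, Maf and Mrc1. Clec1b, a C-type lectin, had 7.48, 8.63 and 6.14 CPM with FGF19ΔKLB, 8.06, 1.88 and 1.93 CPM with FGF19WT, and 7.12, 9.22 and 8.99 CPM with vehicle. Maf, a transcription factor of sinusoidal endothelium, had 13.9, 14.7 and 13.0 CPM with FGF19ΔKLB, 20.9, 9.62 and 6.12 CPM with FGF19WT, and 23.6, 19.6 and 17.8 CPM with vehicle. Gpr182, a scavenging chemokine receptor of these cells, chosen after its values were seen, went the other way in 1 library, with 9.33, 14.1 and 4.83 CPM with FGF19ΔKLB, 12.9, 4.52 and 28.1 CPM with FGF19WT, and 12.1, 10.3 and 9.11 CPM with vehicle. FGF19WT library 3 thus held the highest Gpr182 and the highest Stab1 of all libraries beside the lowest Clec4g and Lyve1.

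Genes of endothelium in all vessels numbered 20. In edgeR over 9 libraries 0 of the 20 were called in any comparison, 17 were negative for FGF19WT against vehicle and 19 for FGF19ΔKLB against vehicle, with medians of -0.77 and -0.63. In FGF19WT libraries 2 and 3, 12 of 20 were below the other 7 libraries, where 19% of all genes were. Esam, a junction protein, was above them, where 18.4% of all genes were. Esam had 3.64, 5.28 and 2.41 CPM with FGF19ΔKLB, 7.34, 7.83 and 18.0 CPM with FGF19WT, and 6.53, 4.99 and 6.99 CPM with vehicle. Its log2 fold change for FGF19ΔKLB against FGF19WT was -1.55 (edgeR unadjusted p = 0.00513, adjusted p = 0.237).

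Of 12 genes of continuous endothelium and large vessels, Apln and Aplnr did not pass the filter, and 0 of the other 10 were called in any comparison in edgeR over 9 libraries. Of these, 9 of 10 were negative for FGF19WT against vehicle, with a median of -0.85, and 9 of 10 for FGF19ΔKLB against vehicle, with a median of -0.77. Plvap, the protein of endothelial diaphragms, had 10.3, 22.1 and 10.3 CPM with FGF19ΔKLB, 17.6, 3.16 and 0.406 CPM with FGF19WT, and 23.8, 31.3 and 23.5 CPM with vehicle. Lama4, a basement membrane laminin, had 1.06, 1.51 and 1.24 CPM with FGF19ΔKLB, 2.34, 1.41 and 0.755 CPM with FGF19WT, and 2.78, 2.80 and 2.48 CPM with vehicle. Its log2 fold change for FGF19ΔKLB against vehicle was -1.08 (edgeR unadjusted p = 0.0296, adjusted p = 0.539). Without FGF19WT library 1, edgeR called lower with FGF19WT than with vehicle 8 of the 12 other sinusoidal genes, 12 of the 20 genes of all vessels and 5 of these 10, where 14.3% of all genes were called lower. The 4 lymphatic genes had 0 calls over 9 libraries and, apart from Prox1, which hepatocytes also express, were below 1 CPM in every library. Without FGF19WT library 1, edgeR called 2 of the 4 lower with FGF19WT than with vehicle, Prox1 (adjusted p = 0.0448) and Ccl21a (0.0408).

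**Figure D4:**
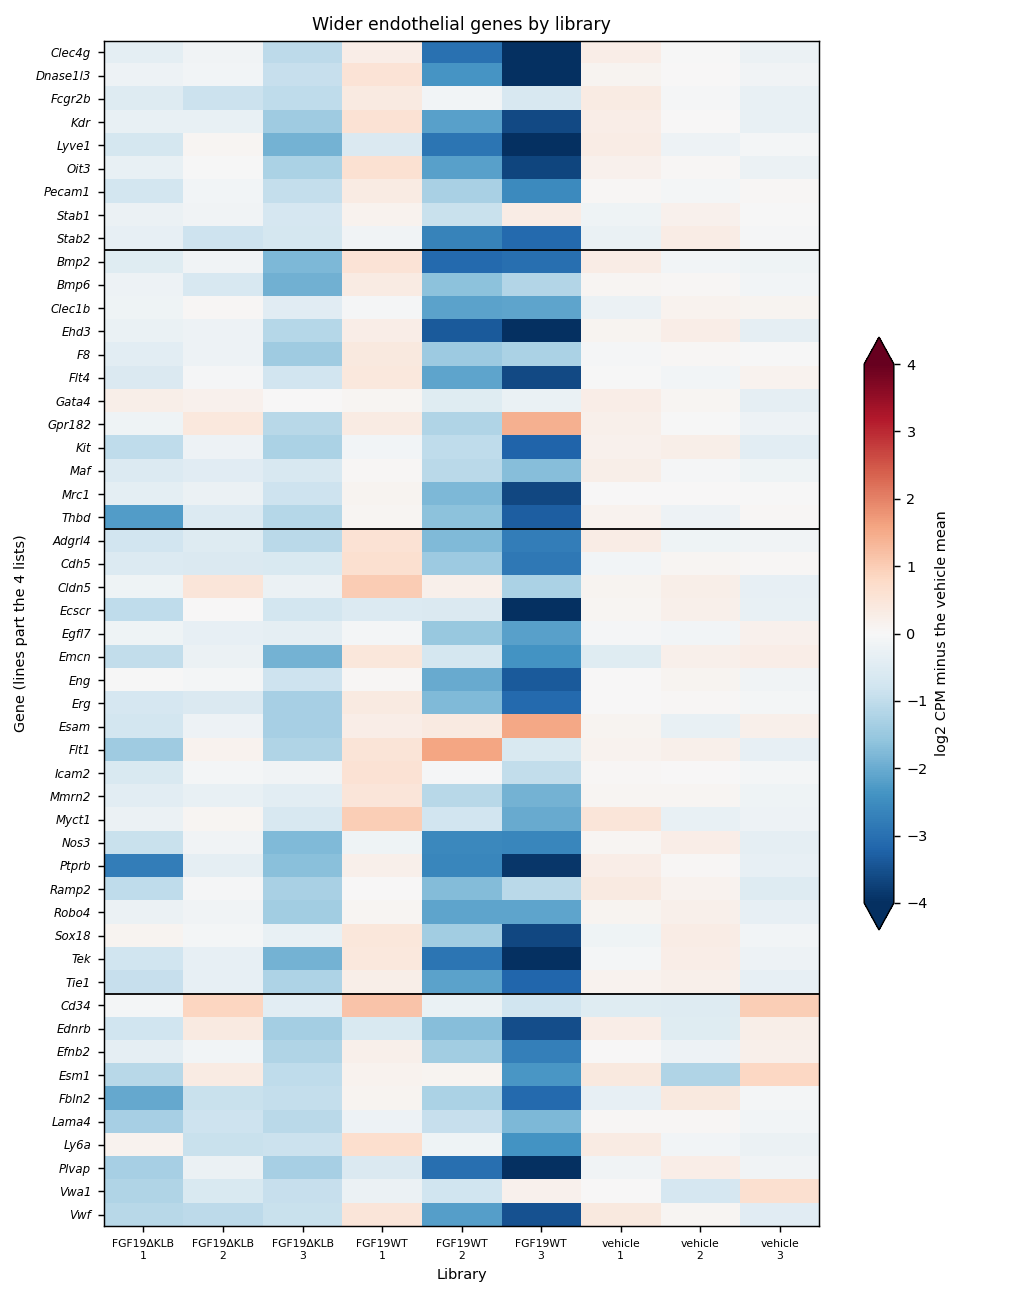
Log2 CPM minus the vehicle mean (colour) for the 9 transcripts and the tested genes of 3 wider endothelial lists (rows) in the 9 libraries (columns), with lines between the lists. FGF19WT libraries 2 and 3 are blue in most rows, with Flt1 in library 2 and Gpr182 and Esam in library 3 (28.1 and 18.0 CPM) among the red exceptions.

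Among ligands and receptors of the VEGF and angiopoietin pathways, 12 of 13 genes passed the filter and 0 were called in any comparison in edgeR over 9 libraries. Without FGF19WT library 1, edgeR called 4 lower and 1 higher with FGF19WT than with vehicle, where 14.3% and 13.1% of all genes were. The 4 were Tek, Tie1, Flt4 and Nrp2. Of these, Tek and Tie1 are also among the genes of all vessels and Flt4 among the other sinusoidal genes. In that fit 6 were called higher and 1 lower with FGF19ΔKLB than with FGF19WT, where 10.9% and 9.3% of all genes were. Vegfa, the ligand of the Kdr receptor, had 133, 138 and 119 CPM with FGF19ΔKLB, 103, 66.2 and 82.7 CPM with FGF19WT, and 113, 93.5 and 102 CPM with vehicle. The FGF19ΔKLB libraries all lay above all vehicle libraries, as in 2247 of 18142 tested genes. FGF19WT libraries 2 and 3 lay below the rest in Vegfa, as in 19% of all genes. Its log2 fold change for FGF19ΔKLB against FGF19WT was 0.63 (edgeR unadjusted p = 0.00806, adjusted p = 0.253), and 0.81 without FGF19WT library 1 (adjusted p = 0.00822). Vegfd, a ligand of the VEGF receptor Flt4, had 0.748, 0.733 and 0.934 CPM with FGF19ΔKLB, 1.07, 3.05 and 6.11 CPM with FGF19WT, and 0.841, 1.02 and 0.589 CPM with vehicle, and its log2 fold change for FGF19WT against vehicle was 2.06 (unadjusted p = 0.00683, adjusted p = 0.140), and 2.47 without library 1 (adjusted p = 0.00307).

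In lists of partners of the receptors in the set, edgeR over 9 libraries called 0 genes in any comparison. Of the genes that make, bind or degrade hyaluronan, the ligand of Stab2 and Lyve1, 6 of 10 passed the filter. Without FGF19WT library 1, where 7 passed, FGF19WT was called lower than vehicle in 2 and higher in 1, against 14.3% and 13.1% of all genes. The 2 were Hyal1 and Cemip2. The 1 called higher was Hmmr, with a log2 fold change of 4.56 (edgeR adjusted p = 0.0105), against 4.02 (0.166) over 9 libraries. Hyal1, a lysosomal hyaluronidase, had 62.7, 46.4 and 27.0 CPM with FGF19ΔKLB, 49.8, 23.7 and 19.4 CPM with FGF19WT, and 52.2, 62.1 and 63.7 CPM with vehicle, and it fell with FGF19WT against vehicle when library 1 was left out (-1.47, edgeR adjusted p = 0.0108, against -0.94 and 0.249 over 9 libraries). Of 10 other scavenger receptors, 6 were below the other 7 libraries in both FGF19WT libraries 2 and 3, where 19% of all genes were. Scarb1, the HDL receptor, was above them, where 18.4% of all genes were. The fit without library 1 called 6 lower and 1 higher with FGF19WT than with vehicle, where 14.3% and 13.1% of all genes were. Marco and Cd163 of this list are also Kupffer cell markers, and Mrc1 is also among the other sinusoidal genes. Cd36, a fatty acid and lipoprotein receptor, had 120, 96.2 and 96.2 CPM with FGF19ΔKLB, 149, 69.1 and 40.0 CPM with FGF19WT, and 196, 218 and 202 CPM with vehicle. Every Cd36 library of either FGF19 group lay below every vehicle library. Of all genes, 11.6% did so with FGF19WT and 12.2% with FGF19ΔKLB. Cd36 had log2 fold changes of -1.26 for FGF19WT (edgeR adjusted p = 0.167) and -0.98 for FGF19ΔKLB (adjusted p = 0.580). In the 6-library fit of FGF19ΔKLB and vehicle it fell (-0.98, edgeR adjusted p = 0.0218). The 5 genes of Fc gamma receptors and partners were all negative against vehicle in both FGF19 groups, with 0 below the other 7 libraries in both FGF19WT libraries 2 and 3, as with Fcgr2b. Of 5 other DNases, 1, Dnase1l1, was below the other 7 there. The fit without FGF19WT library 1 called Fcgr4 of the Fc list and Dnase1l1 of the DNases lower with FGF19WT than with vehicle.

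Markers of some other liver cells were also low in FGF19WT libraries 2 and 3. Of all tested genes, 19% were below the other 7 libraries in both. Below the other 7 libraries in both were 13 of 14 Kupffer cell markers, 9 of 12 stellate cell markers, 8 of 9 B and plasma cell markers, 5 of 11 hepatocyte markers, 3 of 5 cholangiocyte markers, 1 of 6 dendritic cell markers, 0 of 7 T and NK cell markers and 0 of 5 platelet markers. Summed Kupffer cell markers spanned 364 to 427 CPM with FGF19ΔKLB, 67.5 to 439 CPM with FGF19WT and 429 to 541 CPM with vehicle, and Timd4 was at 0 in FGF19WT libraries 2 and 3, and Folr2 and Marco in library 3. Summed stellate cell markers spanned 161 to 319 CPM with FGF19ΔKLB, 233 to 329 CPM with FGF19WT and 423 to 487 CPM with vehicle, with Reln at 175 and 212 CPM in FGF19WT libraries 2 and 3 against 31.3 to 47.9 CPM elsewhere. Summed hepatocyte markers spanned 231202 to 328041 CPM with FGF19ΔKLB, 119886 to 228458 CPM with FGF19WT and 123783 to 179728 CPM with vehicle. Most of that sum was albumin in every library. Summed cholangiocyte markers spanned 26.2 to 59.2 CPM with FGF19ΔKLB, 15.9 to 34.8 CPM with FGF19WT and 49.4 to 63.4 CPM with vehicle.

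Summed lymphocyte markers lay below every vehicle library in all libraries of both FGF19 groups. Summed B and plasma cell markers spanned 31.9 to 71.5 CPM with FGF19ΔKLB, 4.03 to 31.6 CPM with FGF19WT and 104 to 247 CPM with vehicle. Most of that sum in vehicle was Igkc, an immunoglobulin chain. In FGF19WT library 1 the sum was 31.6 CPM, but the median of these markers was 0.38 above the vehicle mean on the log2 scale. That lay inside the medians of the vehicle libraries, which ran from -0.47 to 0.51. Summed T and NK cell markers spanned 2.41 to 3.78 CPM with FGF19ΔKLB, 1.70 to 4.98 CPM with FGF19WT and 7.97 to 17.7 CPM with vehicle. Cd8a, a cytotoxic T cell marker, fell in the 6-library fit of FGF19ΔKLB and vehicle (log2 fold change -3.29, edgeR adjusted p = 0.0187). Over 9 libraries it was not called (-3.29, edgeR adjusted p = 0.114). Dendritic cell markers summed to 6.08 to 11.1 CPM with FGF19ΔKLB, 4.32 to 11.7 CPM with FGF19WT and 10.2 to 13.5 CPM with vehicle, and platelet markers to 5.95 to 11.7 CPM with FGF19ΔKLB, 3.35 to 5.86 CPM with FGF19WT and 3.56 to 6.54 CPM with vehicle.

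In edgeR over 9 libraries 0 markers of any of these lists were called. Without FGF19WT library 1, FGF19WT was called lower than vehicle in 14 of 14 Kupffer, 9 of 12 stellate, 5 of 9 B and plasma, 4 of 7 T and NK, 5 of 11 hepatocyte, 2 of 5 cholangiocyte, 2 of 6 dendritic and 0 of 5 platelet markers, where 14.3% of all genes were called lower. It was called higher in 1 stellate marker, Reln, and 2 hepatocyte markers, Ahsg and Apoa1, where 13.1% of all genes were. The 5 hepatocyte markers called lower were Cps1 (log2 fold change -5.44, edgeR adjusted p = 3.22e-05), Fgb (-2.26), Serpina1c (-1.78), Apob (-1.54) and Ttr (-0.78). Cps1 thus fell further in that fit than any of the 9 transcripts. The part of these cells in the levels of the 9 transcripts was not tested.

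**Figure D5:**
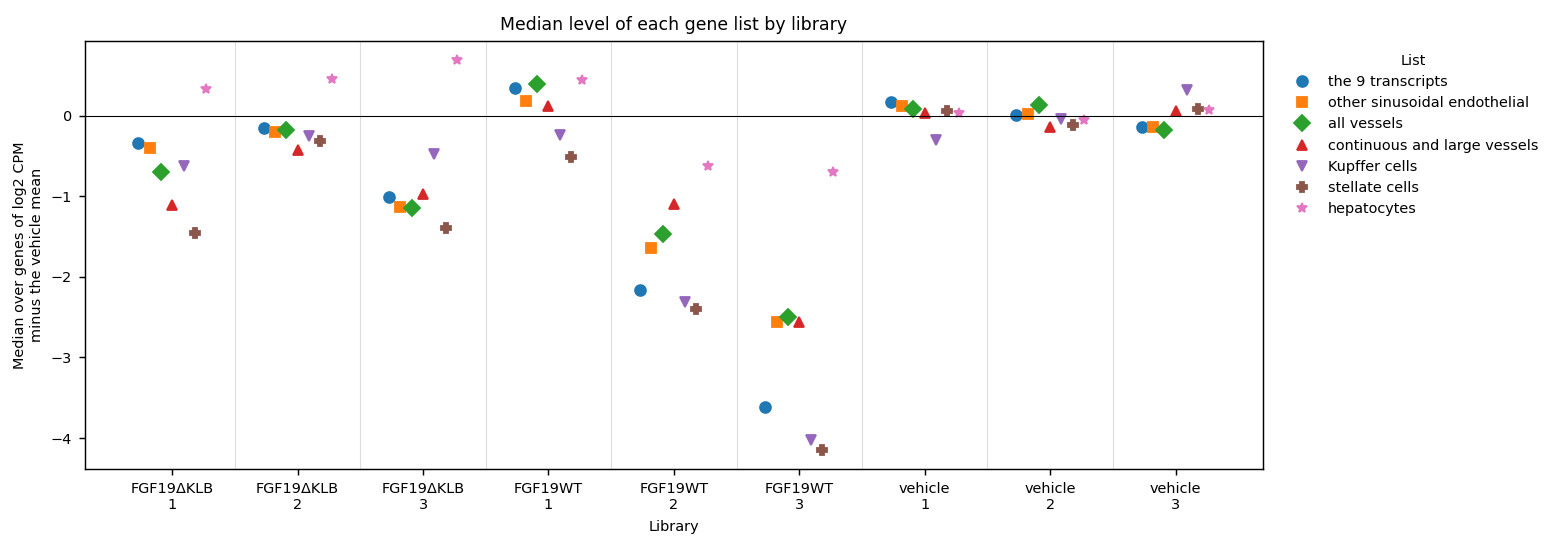
Median over the genes of each list of log2 CPM minus the vehicle mean, by library, for the 9 transcripts, 3 wider endothelial lists and the Kupffer, stellate and hepatocyte markers. In FGF19WT library 3 the 9 transcripts lie at -3.62, near Kupffer markers at -4.02 and stellate markers at -4.15 and below the hepatocyte markers at -0.69.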

How the data were processed

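Liver RNA of db/db mice given FGF19ΔKLB, FGF19WT or vehicle was measured in 9 libraries, 3 per group, grouped by sample title. Columns of the FGF19ΔKLB group carry the code F19_HBS, whose meaning is not given. The deposited table gives, per gene and library, expected counts (whole numbers, not scaled for library size) and FPKM, both made by the authors. The submitters' processing notes name Bowtie 0.12.2, HISAT2 2.0, StringTie 1.3.0 and build mm8, without roles. Positions in the table follow GRCm38 instead: all 28517 gene starts equal those of GENCODE M21, as do 25998 ends.

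Counts were fitted with edgeR 4.0.16 (R 4.3.3): TMM factors, the low-count filter by group, group as the only term, a robust quasi-likelihood fit over all 9 libraries with 6 residual degrees of freedom, and Benjamini-Hochberg adjustment over all 18142 genes at 0.05. On simulated data the fit missed most genes given the smaller changes, so an uncalled gene may have changed. log2 CPM used a prior count of 2. Alternatives were DESeq2 1.42.0, its size factors, limma 3.58.1 on log2 FPKM, no filter, a block for the replicate number, fits to 6 libraries, counts divided by 4, and libraries left out. The 9 genes, the 17 other lists (155 symbols, of which 2 were not analysed here) and the motifs were chosen with earlier results of these data known. Some symbols are shared between lists. All 9 genes were reported. From other lists, the genes named were among the 3 with the smallest p per comparison unless they spell out a count or are said to be chosen later, and the 8 nearest profiles were named.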

Additional observations from a re-analysis of the deposited data

How the results depend on the processing

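Of 171 recomputed log2 fold changes per comparison (9 genes, 19 alternatives), all 171 kept their sign and stayed above the threshold for FGF19ΔKLB against vehicle, with a lowest adjusted p of 0.105. For FGF19WT against vehicle 153 did, 7 passed the threshold and 11 reversed. For FGF19ΔKLB against FGF19WT 148 did, 6 passed the threshold and 17 reversed. Fits that left out only FGF19WT libraries kept every library of FGF19ΔKLB against vehicle, so its fold changes could hardly move in them. Genes of the set called with a library left out ranged from 0 to 7 for FGF19WT against vehicle and from 0 to 6 for FGF19ΔKLB against FGF19WT, all of them without FGF19WT library 1; under every other alternative 0 were called. With both FGF19WT libraries 2 and 3 left out, log2 fold changes against vehicle were 0.26 for Clec4g, 0.55 for Dnase1l3, 0.34 for Fcgr2b, 0.55 for Kdr, 0.61 for Oit3, 0.34 for Pecam1 and 0.14 for Stab1, and for FGF19ΔKLB against FGF19WT -0.76 for Clec4g, -0.91 for Dnase1l3, -1.16 for Kdr, -0.037 for Lyve1, -1.06 for Oit3, -0.91 for Pecam1 and -0.46 for Stab2. Leaving out 1 library, FGF19WT against vehicle ranged from -0.38 to 0.12 for Fcgr2b and from -0.29 to 0.21 for Stab1, and FGF19ΔKLB against FGF19WT from -0.086 to 2.72 for Dnase1l3, -0.36 to 2.15 for Kdr, -0.24 to 2.32 for Oit3 and -0.31 to 1.24 for Pecam1. These reversals come from the libraries left out.

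Genes called among all tested, for FGF19WT against vehicle, FGF19ΔKLB against vehicle and FGF19ΔKLB against FGF19WT, were 20, 2 and 0 as reported; 1743, 370 and 834 with the DESeq2 Wald test; 26, 11 and 0 with no filter; 1, 292 and 1 over 6 libraries; 48, 38 and 0 with limma on log2(FPKM + 1), 39, 17 and 1 on log2(FPKM + 0.1), and 45, 45 and 2 with no FPKM filter; 18, 4 and 0 with counts divided by 4; and 20, 303 and 7 without FGF19WT libraries 2 and 3. Leaving out 1 library gave 0 to 5221, 0 to 172 and 0 to 3846. With the replicate number as a replicate block they were 1, 0 and 0, and 0 of the 9 genes were called, while the median log2 fold change of the 9 was -1.56, -0.60 and 0.98 with the block, against -0.77, -0.57 and 0.28 without it (for FGF19WT against vehicle, Clec4g -2.06, Dnase1l3 -1.77 and Kdr -1.56). Over 9 same-numbered pairs the correlation of deviations ran from -0.05 to 0.15 and passed 0.1 in 1. For pairs with different numbers it ran from -0.18 to 0.14, so this check cannot tell whether the numbers pair the libraries. The cause of the differences between these fits was not tested. Depth limits Lyve1 most, at 19 counts in FGF19WT library 3.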
